A study of Sus scrofa with 2 samples.

Results

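The antioxidant, NRF2 and iron handling genes were described in PSI, a clone of smooth muscle cells from the ileum, the final stretch of the pig's small intestine. The genes were taken from a list of 38 symbols that covers the NRF2 switch, the glutathione, peroxiredoxin and thioredoxin systems, superoxide dismutases and catalase, and iron storage and transport. Of these, 34 had a value among the 14856 genes with a symbol in the table of 25880 identifiers. TXN, FTH1, GSTP1 and GPX1 could not be paired with a row and were not analysed here. The data set held 1 group of 2 RNA-seq libraries of total RNA from the clone, grown in DMEM medium with 10% FBS (serum) and antibiotics, and no treated, tissue or other-cell group. No genotype, treatment, time or animal age was given in the labels. The labels named no separate cultures for the duplicates, so each SD reflects library-to-library spread only, which can be wholly technical. A single clone is 1 line of cells, and its levels cannot be set against other clones or against the ileum wall.

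Cells limit reactive oxygen species through enzymes whose genes are largely shared across tissues. NRF2, encoded by NFE2L2, is a transcription factor that KEAP1 marks for degradation in unstressed cells. When KEAP1 is modified by oxidants, NRF2 accumulates and raises genes such as NQO1, GCLC, GCLM, TXNRD1, SRXN1 and HMOX1. Superoxide is turned into hydrogen peroxide by superoxide dismutases, and the peroxide is removed by catalase, by glutathione peroxidases and by peroxiredoxins. Thioredoxin restores most peroxiredoxins. Free iron converts peroxide into more reactive radicals, so cells take iron up through the transferrin receptor, store it in ferritin and export it through ferroportin. Iron regulatory proteins adjust the mRNAs of these iron genes.

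Levels are in FPKM, the read count of a gene divided by its length in kilobases and by the library total in units of 1000000. Different genes can be compared only as far as the lengths used for them are right. Totals of 35176565 and 32217729 were recovered from the values of replicates 1 and 2, and a single read over 1 kb then equals 0.0284 and 0.0310 FPKM. Of the fixed smooth muscle markers, 7 of 9 reached 1 FPKM in each library, against 61.5% of all genes with a symbol. The count was 3 of 4 for fibroblast markers, so it does not set smooth muscle apart from fibroblasts. It was 2 of 6 for leukocyte and macrophage markers and 1 of 4 each for endothelial and neuronal markers. No epithelial, glial, erythroid or interstitial cell of Cajal marker reached 1 FPKM in both libraries. The highest smooth muscle marker was ACTA2 (702 and 685 FPKM), and the lowest of the 7 were TAGLN (5.34 and 5.58) and DES (2.74 and 3.06). MYH11 stayed below 1 FPKM and MYOCD was listed at 0. Markers of erythroid cells and macrophages, which handle iron and peroxide in bulk, were low. The summed level of 4 measured erythroid markers was 0.173 and 0.181 FPKM, with HBM highest (0.140 and 0.153) and HBB at 0. The 6 leukocyte and macrophage markers summed to 3.67 and 3.69 FPKM, with CD14 highest (2.34 and 2.23) and PTPRC and CD163 at 0. KRT8 led the epithelial markers (0.0703 and 0.0853), PECAM1 the endothelial (1.92 and 1.60), SOX10 the glial (0.137 and 0.140) and ANO1 those of interstitial cells of Cajal (0.819 and 0.765), while the fibroblast markers PDGFRA (2.25 and 2.23) and DCN (2.52 and 1.89) changed order between the libraries. UCHL1, in the neuronal list, had 239 and 236 FPKM, whereas the neuronal gene ELAVL4 was listed at 0.

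Most of the 34 measured redox and iron genes were expressed, and the peroxiredoxins held the largest part of their summed FPKM. TXN, FTH1, GSTP1 and GPX1 had no value and are not in that sum. Of the 34, 30 reached 1 FPKM in both libraries, 88.2%, against 61.5% of all genes with a symbol. At 10 FPKM the count was 26, 76.5% against 32.8%, and at 100 FPKM it was 4, 11.8% against 2.98%. The background contains genes without reads in these libraries. Whether other widely expressed genes lie as far above it as the members do was not tested. The 4 genes above 100 FPKM were PRDX1, PRDX4, TXNRD1 and PRDX3. The 4 under 1 FPKM were FTL, SOD3, GPX3 and GPX4. The median over the members was 4.42 on the log2(FPKM + 1) scale, against 2.29 over all genes with a symbol, which corresponds to a median mean level of 20.4 FPKM against 3.90. By role, the median on the same scale was highest for the peroxiredoxins and sulfiredoxin (6.01), followed by thioredoxins and reductases (5.62), the NRF2 regulators (4.82), glutathione synthesis and recycling (4.42) and iron uptake, export and control (4.18). It was 3.92 for superoxide dismutases and catalase, 3.56 for heme oxygenases and NQO1, 3.05 for glutathione transferases, 1.99 for glutathione peroxidases and 0.49 for ferritin, of which FTL alone was measured. The glutathione peroxidase median includes GPX4, listed at 0, and was 3.71 without it, above that of heme oxygenases and NQO1. By the mean over members the order also changed, with thioredoxins and reductases (4.78) below the NRF2 regulators (4.82), and superoxide dismutases and catalase (3.09) below heme oxygenases and NQO1 (4.05). The ferritin median was 0.34 without replicate 1 and 0.63 without replicate 2. With 1 group no test of a difference was possible, and these are descriptions. The members made up 0.396% ± 0.000610 (SD, n = 2) of the summed FPKM. In bulk RNA, fewer cells that express a gene and less RNA per cell cannot be told apart.

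**Figure D1:**
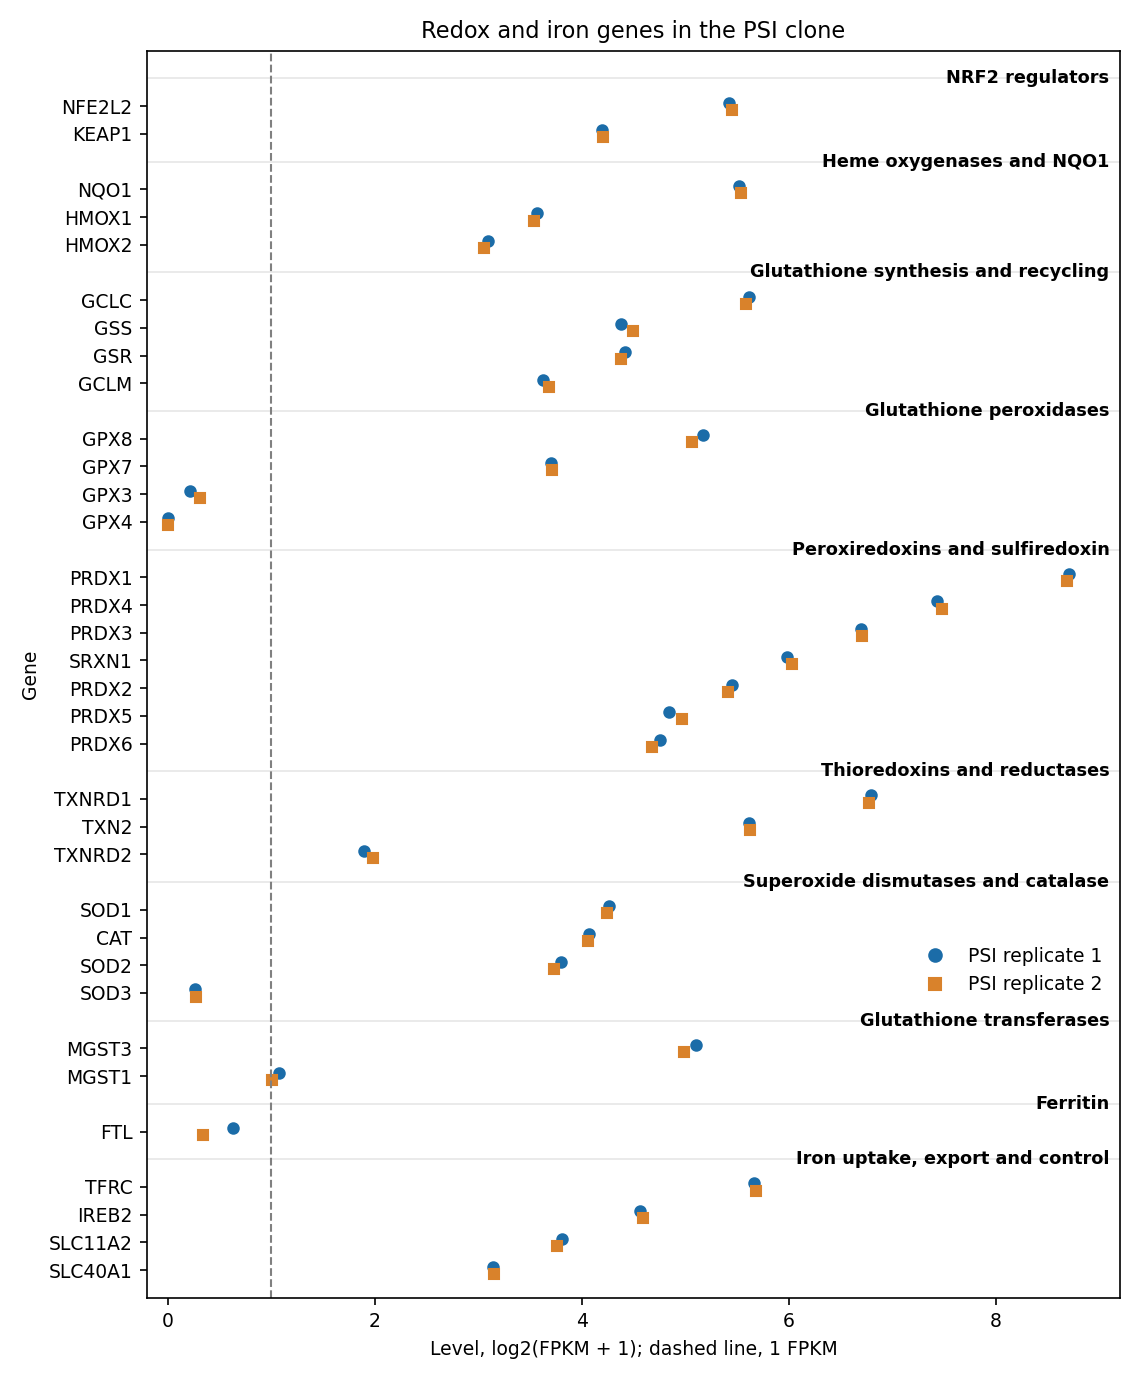
Level of each of the 34 measured genes on the log2(FPKM + 1) scale in PSI replicate 1 (circles) and replicate 2 (squares), grouped by role, with a dashed line at 1 FPKM. The peroxiredoxins reach the highest level with PRDX1 at 418 and 412 FPKM, while GPX4, GPX3, SOD3 and FTL lie left of the dashed line.

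**Figure D2:**
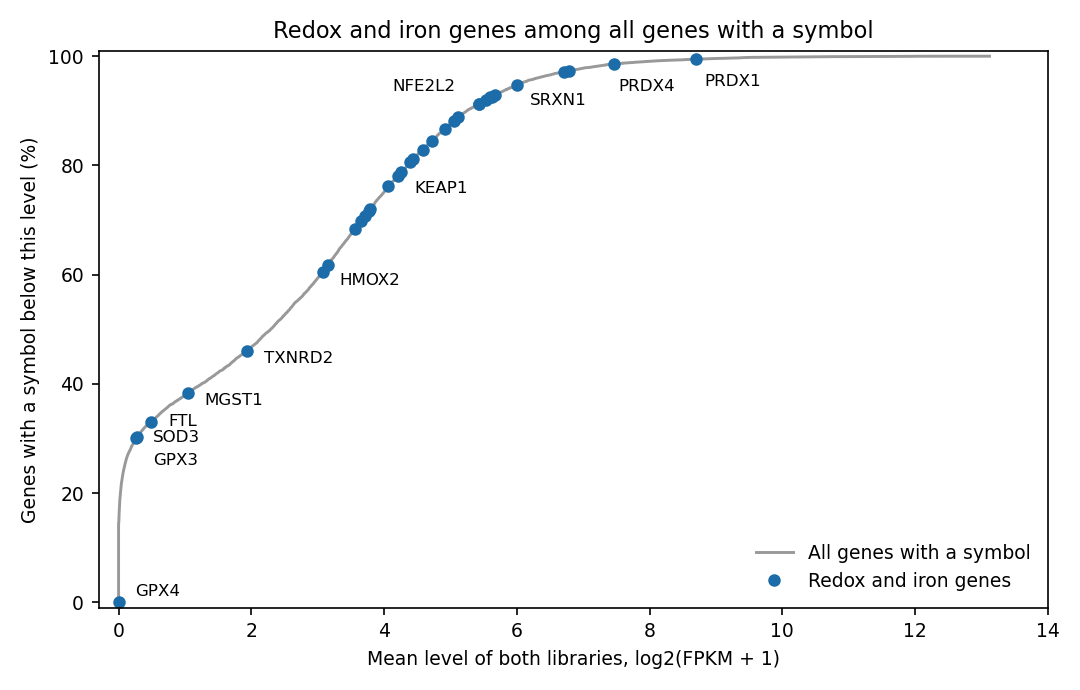
Share of the 14856 genes with a symbol that lie below each level (grey curve, %) against the mean level of both libraries on the log2(FPKM + 1) scale, with the 34 redox and iron genes as points. Of these points, 21 lie above 75% of all genes with a symbol and 11 above 90%.

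Both sides of the NRF2 switch were expressed. NFE2L2 had 41.8 and 42.9 FPKM in replicates 1 and 2, and KEAP1, the adaptor through which NRF2 is ubiquitinated, had 17.4 and 17.5. NFE2L2 was thus 2.41-fold and 2.45-fold above KEAP1 in the 2 libraries, on the level of mRNA per kilobase. In RefSeq coordinates of Sscrofa11.1, NFE2L2 lies on chromosome 15 from 82967485 to 83146185, where its model overlaps those of AGPS and HNRNPA3, and KEAP1 lies on chromosome 2 from 69280940 to 69290267. Of the 32 measured members with a placed RefSeq model, 8 overlapped another gene, namely NFE2L2, HMOX2, GSS, GPX8, PRDX2, PRDX6, TXNRD2 and SOD1. Whether counting used strand was not stated, so reads from overlapping genes may not have been told apart, and the levels and ratios of these 8 carry that limit.

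Among the partners of NRF2, 7 of 10 measured genes reached 1 FPKM in both libraries, against 61.5% of all genes with a symbol. SQSTM1, an autophagy receptor that can sequester KEAP1, had 147 and 144 FPKM, and NFE2L1, the NRF1 factor related to NRF2, had 108 and 106. NFE2L1 was therefore 2.58-fold and 2.47-fold above NFE2L2. CUL3, the ubiquitin ligase scaffold that works with KEAP1, had 24.1 and 25.5 FPKM, and its partner RBX1 had 64.0 and 61.4. BACH1, a repressor that competes with NRF2 for its binding sites and that heme displaces, had 16.5 and 17.0. The small MAF proteins that pair with NRF2 were present as MAFF (20.4 and 21.2) and MAFG (28.4 and 28.2). NFE2, NFE2L3 and BACH2 stayed below 1 FPKM.

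NQO1, a quinone reductase often used as a readout of NRF2, had 44.9 and 45.7 FPKM. The heme oxygenases, which open the heme ring and release iron, were lower. HMOX1, the inducible form, had 10.9 and 10.7 FPKM, and HMOX2, the constitutive form, had 7.54 and 7.31. HMOX1 was 1.44-fold and 1.46-fold above HMOX2, and the intervals of counting error of the 2 genes did not meet in either library. RefSeq places NQO1 on chromosome 6 from 17292962 to 17302593, and HMOX1 on a sequence not assigned to a chromosome.

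Of 16 further genes known as NRF2 targets in mammals, 15 reached 1 FPKM in both libraries, against 61.5% of all genes with a symbol. CBR1 was listed at 0. SLC3A2 (189 and 199 FPKM) and PGD (120 and 121) were the highest. SLC3A2 and SLC7A11 encode the chains of the cystine transporter that feeds glutathione synthesis, and SLC7A11 had 49.0 and 52.0 FPKM, so that SLC3A2 was 3.85-fold and 3.82-fold above it. SLC3A2 also pairs with other amino acid transporters. PGD belongs to the oxidative arm of the pentose phosphate pathway, which supplies the NADPH that the antioxidant reductases spend.

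All 4 genes of glutathione synthesis and recycling were expressed. GCLC, the catalytic subunit of the rate-limiting glutamate-cysteine ligase, had 47.9 and 47.2 FPKM in replicates 1 and 2. GCLM, its modifier subunit, had 11.3 and 11.9. The catalytic transcript was 4.23-fold and 3.98-fold above the modifier transcript. GSS, which completes glutathione, had 19.8 and 21.6 FPKM, and GSR, which reduces oxidised glutathione, had 20.4 and 19.8. The values of GSS and GSR overlapped between the libraries, so their order is not resolved. RefSeq places GCLC on chromosome 7 from 27209565 to 27253535 and GCLM on chromosome 4 from 123371198 to 123390130.

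Of the 4 measured glutathione peroxidases, 2 reached 1 FPKM in both libraries. GPX8, a peroxidase anchored in the membrane of the endoplasmic reticulum, had 35.0 and 32.6 FPKM, and GPX7, its relative in the lumen, had 12.0 and 12.1. GPX8 was 2.92-fold and 2.69-fold above GPX7. GPX3, the secreted peroxidase of plasma, had 0.164 and 0.239 FPKM from at least 9 and 12 reads, and the 95% Poisson intervals ran from 0.0749 to 0.311 in replicate 1 and from 0.123 to 0.417 in replicate 2. GPX4, which removes lipid peroxides and restrains ferroptosis, was listed at 0 in both libraries. RefSeq places GPX4 on chromosome 2 from 77321568 to 77323931, with no overlapping model. Without reads the gene length stays unknown, and the limit that a count of 0 allows could not be set for GPX4.

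A value of 0 in this table need not mean that a gene is silent. Of 44 measured cytosolic ribosomal protein genes, which nearly every cell uses, 4 lay under 1 FPKM in a library (RPS2, RPS21, RPL29 and RPS27A), 2 of them at 0 in both, while the median of the 44 was 299.9 FPKM. The cause of these low values, and of those of GPX4 and FTL, was not tested. Lists of related enzymes contained further zeros: GPX6 and MGST2 were listed at 0. Of that list of other glutathione peroxidases, glutathione transferases and glutaredoxins, 8 of 12 measured genes reached 1 FPKM in each library. The share over all genes with a symbol was 61.5%. The highest of the list were GLRX3 (71.8 and 72.4 FPKM) and GLRX5 (29.3 and 29.8), both of which serve iron-sulfur cluster handling.

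Peroxiredoxins, thiol peroxidases that remove low levels of hydrogen peroxide, were all expressed. PRDX1, the cytosolic form, had 418 and 412 FPKM in replicates 1 and 2, the highest of the 34 genes and rank 82 among all genes with a symbol. PRDX4, the form of the endoplasmic reticulum, had 172 and 178 FPKM. PRDX3, the form of the mitochondrial matrix, had 103 and 104. These 3 stood above PRDX2 (42.9 and 41.6), PRDX5 (27.7 and 30.4) and PRDX6 (26.0 and 24.6). PRDX1 was 2.43-fold and 2.31-fold above PRDX4, and 9.76-fold and 9.91-fold above PRDX2, the other cytosolic form of the same class. The smallest lengths under which reads came out whole were 505 bp for PRDX1, 1103 bp for PRDX4 and 3175 bp for PRDX2. These ratios depend on the length used for each gene. The 6 peroxiredoxins together held 54.2% and 54.3% of the summed FPKM of the 34 genes. SRXN1, the sulfiredoxin that repairs overoxidised peroxiredoxins and an NRF2 target, had 62.5 and 64.4 FPKM. RefSeq places PRDX1 on chromosome 6 from 165847390 to 165859918, PRDX4 on the X chromosome from 19800153 to 19819575 and PRDX3 on chromosome 14 from 129079050 to 129090790.

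The thioredoxin system was represented by 3 measured genes, since TXN was not analysed. TXNRD1, the cytosolic thioredoxin reductase and an NRF2 target, had 110.0 and 109 FPKM. TXN2, the mitochondrial thioredoxin, had 48.0 and 48.5. TXNRD2, the mitochondrial reductase, had 2.72 and 2.97 FPKM. TXNRD1 was 40.5-fold and 36.8-fold above TXNRD2. The TXNRD2 value rests on at least 15 and 15 reads, with 95% Poisson intervals from 1.52 to 4.48 and from 1.66 to 4.89 FPKM. These are the smallest reads that fit, with a length of 157 bp, and true reads may be a multiple of them. RefSeq places TXNRD1 on chromosome 5 from 80170334 to 80213889.

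Superoxide dismutases inside the cell and catalase lay at moderate levels, and the secreted form was low. SOD1, the cytosolic copper-zinc enzyme, had 18.3 and 17.9 FPKM, and SOD2, the mitochondrial manganese enzyme, had 12.9 and 12.3. SOD1 was 1.41-fold and 1.46-fold above SOD2. CAT, the peroxisomal catalase, had 15.8 and 15.7 and lay between them. SOD3, which acts in the extracellular matrix, had 0.204 and 0.210 FPKM from at least 18 and 17 reads. CCS, the chaperone that loads copper into SOD1, had 32.5 and 33.5 FPKM.

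The measured glutathione transferases of the membrane differed widely. MGST3 had 33.4 and 30.7 FPKM, and MGST1 had 1.11 and 1.01 FPKM from at least 42 and 35 reads. The MGST1 intervals, from 0.801 to 1.50 and from 0.705 to 1.41 FPKM, include the detection level of 1 FPKM, so its detection is not firm at this depth.

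TFRC and SLC11A2, which serve iron uptake, stood above the measured iron exporter SLC40A1, and the measured ferritin chain was listed under 1 FPKM. The cause of that low ferritin value was not tested. TFRC, the transferrin receptor, had 49.7 and 50.3 FPKM in replicates 1 and 2. SLC40A1, ferroportin, which is the known route of iron out of cells, had 7.86 and 7.91. TFRC was 6.33-fold and 6.37-fold above SLC40A1. SLC11A2, which carries iron out of endosomes, had 13.0 and 12.5 FPKM. IREB2, an iron regulatory protein, had 22.7 and 23.2 FPKM and was 1.51-fold and 1.63-fold above ACO1, the cytosolic aconitase that is the other iron regulatory protein (15.0 and 14.2). RefSeq places TFRC on chromosome 13 from 133976765 to 133997554 and SLC40A1 on chromosome 15 from 94140635 to 94161793.

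FTL, the ferritin light chain, had 0.550 and 0.267 FPKM in replicates 1 and 2, based on at least 18 and 8 reads. Its mean was 0.408 FPKM, against 0.267 without replicate 1. The 95% Poisson intervals, from 0.326 to 0.869 and from 0.115 to 0.526 FPKM, overlapped, so a difference between the libraries was not detectable at this depth. RefSeq places FTL on chromosome 6 from 54231121 to 54232756, with no overlapping model. As for the 4 ribosomal protein genes under 1 FPKM, a low value of FTL in this table need not mean little mRNA. Its cause was not tested. FTH1, the heavy chain, was not analysed here, so the level of ferritin mRNA as a whole is not known. NCOA4, which carries ferritin to the lysosome, had 20.2 and 20.1 FPKM.

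Of 19 other measured genes of iron uptake, transfer and control, 9 reached 1 FPKM in both libraries, against 61.5% of all genes with a symbol. PCBP2, an RNA-binding protein that also serves as an iron chaperone, had 146 and 142 FPKM, and the metalloreductase gene STEAP2 had 40.0 and 41.1. Not all uptake genes lay above the exporter. TFR2, the second transferrin receptor, had 0.0116 and 0 FPKM, the metal importer SLC39A8 had 0.686 and 0.791, and the endosomal reductase STEAP3 had 0.00885 and 0.0193, while the importer SLC39A14 had 29.3 and 28.2. TF, STEAP4, HEPH, HAMP, FTMT and LTF were listed at 0. TF, HAMP and LTF encode the secreted proteins transferrin, hepcidin and lactoferrin, which are known from liver, milk and leukocytes.

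Most measured genes of the heme and iron-sulfur lists reached 1 FPKM, as did 61.5% of all genes with a symbol. Of 14 genes of heme synthesis and breakdown, 11 reached 1 FPKM in each library. UROD, an enzyme of the middle of the heme pathway, had 27.8 and 27.6 FPKM. ALAS1, the general first enzyme of the pathway, had 16.7 and 16.1, while ALAS2, its erythroid form, had 0.0288 and 0.0157. All 10 measured genes of iron-sulfur cluster assembly and mitochondrial iron reached 1 FPKM, led by the chaperone HSPA9 (162 and 159) and the scaffold ISCU (71.1 and 69.8). Of the metallothionein list, MT3 alone was measured and was listed at 0.

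**Figure D3:**
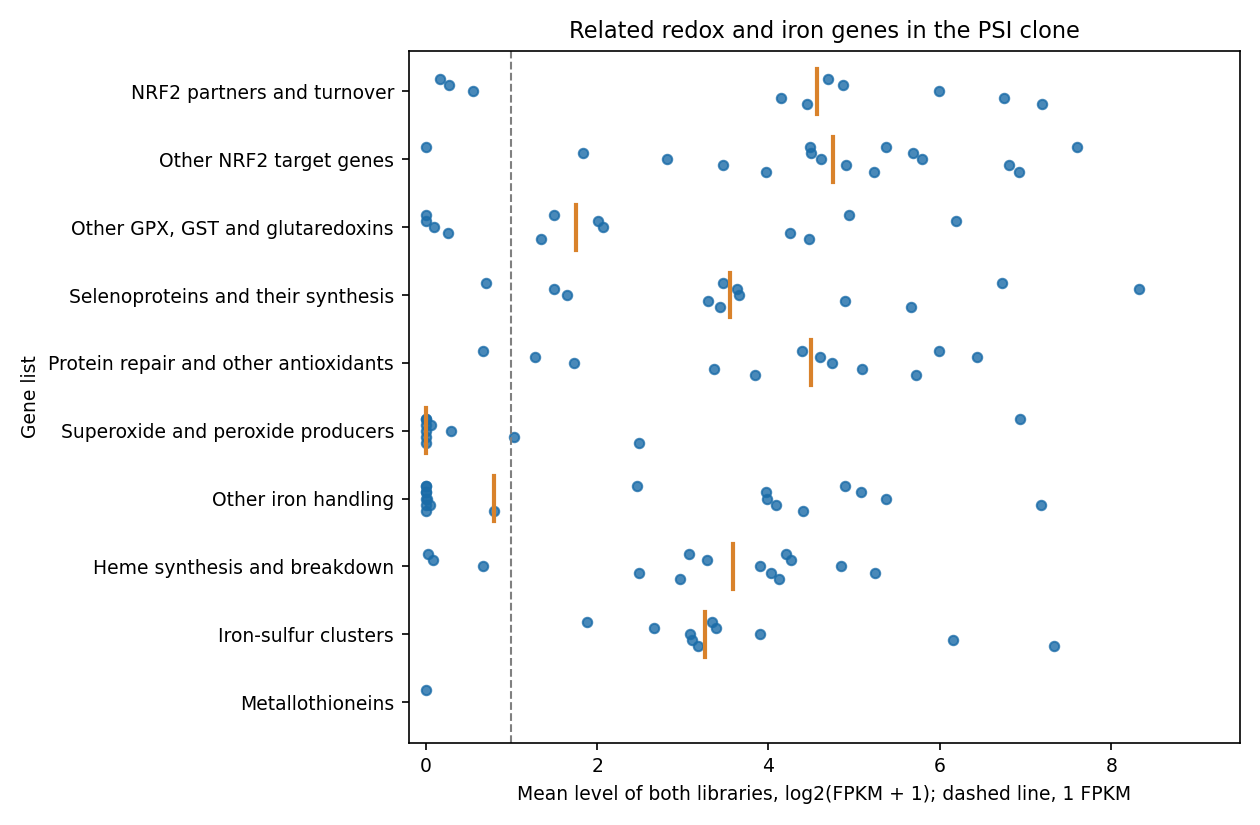
Mean level of both PSI libraries on the log2(FPKM + 1) scale for 117 measured related genes (points) in 10 lists, with list medians (vertical bars, drawn for lists of more than 1 gene) and a dashed line at 1 FPKM. The medians of the superoxide and peroxide producers and of the other iron handling genes lie below the dashed line. Of the 117 genes, 84 reached 1 FPKM in both libraries, against 61.5% of all genes with a symbol.

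Enzymes that produce superoxide or peroxide lay mostly under 1 FPKM. Of 11 measured genes, 2 reached 1 FPKM in both libraries, against 61.5% of all genes with a symbol. NOX4, a NADPH oxidase known from smooth muscle and fibroblasts that releases mainly hydrogen peroxide, had 4.54 and 4.70 FPKM. CYBA, the membrane subunit that stabilises NOX proteins, had 117 and 126, which was 25.9-fold and 26.9-fold above NOX4. NOX1, NOX3, NOX5, DUOX2 and XDH were listed at 0.

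The genes can also be read by where their proteins act. The 4 measured genes of mainly mitochondrial proteins ranged from TXNRD2 at a mean of 2.84 FPKM to PRDX3 at 103, and the 3 peroxidases of the endoplasmic reticulum ranged from GPX7 at 12.0 to PRDX4 at 175. The 2 secreted enzymes, GPX3 and SOD3, had means of 0.201 and 0.207 FPKM and were among the 4 genes under 1 FPKM.

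Of the 5 members known to carry selenocysteine, the 4 measured lay far apart. TXNRD1 had a mean of 109.5 FPKM, TXNRD2 2.84 and GPX3 0.201, and GPX4 was listed at 0. Of the list of selenoprotein synthesis factors and other selenoproteins, 11 of 12 measured genes reached 1 FPKM in both libraries. The share over all genes with a symbol was 61.5%. SELENOM had 310.2 and 328 FPKM and SELENOF had 105 and 105, both proteins of the endoplasmic reticulum. SECISBP2, the factor that directs selenocysteine insertion, had 9.99 and 10.2, and SEPHS2 was not analysed here. In the list of protein repair enzymes and other antioxidants, 11 of 12 reached 1 FPKM, led by NXN, a nucleoredoxin (83.8 and 86.8), and PARK7 (63.1 and 62.1).

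In the order of the 34 genes by mean level, the values of neighbours overlapped between libraries in 5 of 33 pairs, which were NFE2L2 and PRDX2, GPX8 and MGST3, GSS and GSR, SLC11A2 and SOD2, and SOD3 and GPX3. By counting error, 13 of the 32 pairs with reads had 95% Poisson intervals that overlapped in both libraries, so the positions of these neighbours are not resolved by reads alone.

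None of the 33 members with reads was called different between the duplicates after adjustment. A two-sided exact binomial test on the recovered reads, with Benjamini-Hochberg adjustment over 16327 genes, called 0 of these 33, against 1.06% of all genes. With so small a share over all genes, a count of 0 in 33 is no result about the members. Recovered reads are the smallest that fit, so the test can miss differences. At an unadjusted p under 0.05 it marked 2 of 33, 6.06% against 9.80% of all genes. GPX8 was lower in replicate 2, by the exact binomial test at p = 0.0172 and an adjusted p = 0.314, and GSS was higher in replicate 2, at p = 0.0248 and an adjusted p = 0.374. The members were higher in replicate 2 for 17 genes and in replicate 1 for 16. Their median coefficient of variation was 2.11% over 33 genes. Among genes at 1 FPKM or more in both libraries, it was 1.90% for the members and 2.41% for all genes with a symbol. Of the 102 related genes with reads, the test called 1, SLC3A2, at an adjusted exact binomial p = 0.0415. That count is near the 1.06% called over all genes, so it is no result about these genes. The test compares these libraries and no condition.

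**Figure D4:**
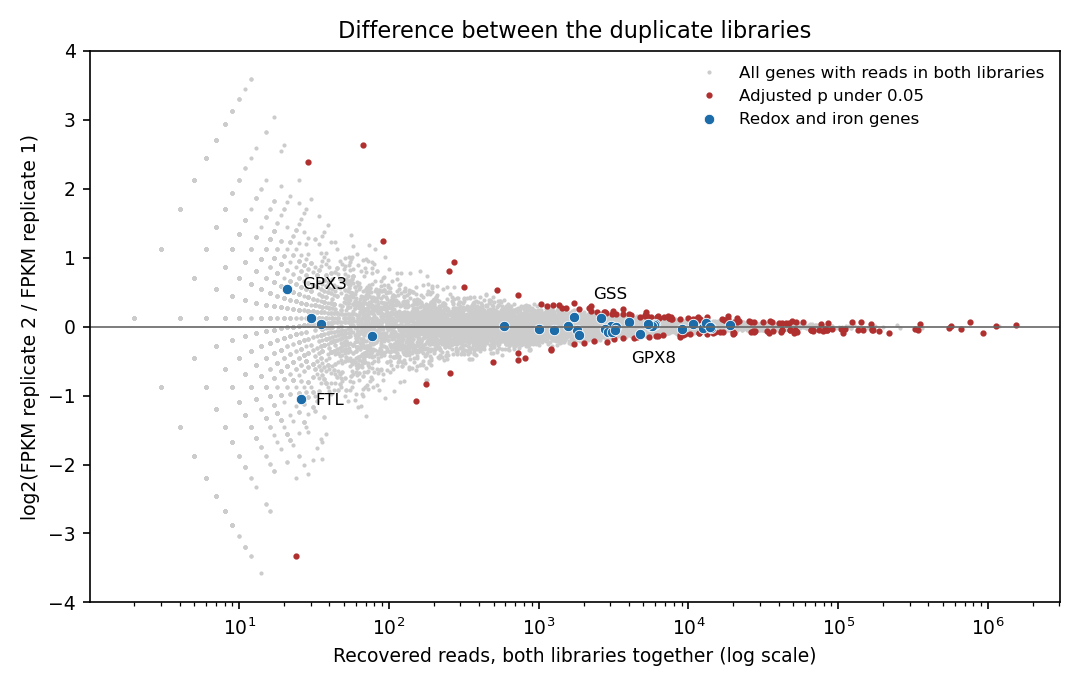
The log2 ratio of FPKM in replicate 2 to FPKM in replicate 1 against the recovered reads of both libraries together (log scale) for all genes with reads in both libraries (grey), genes with an adjusted p under 0.05 (red) and the 33 redox and iron genes with reads (blue). FTL and GPX3 lie farthest from 0 among the blue points, at -1.04 and 0.54, and both rest on few reads.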

How the data were processed

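Libraries of total RNA were made with the NEBNext Ultra kit after TRIzol extraction, per the labels' protocols. Alignment and counting tools named in the submitters' processing notes are TopHat2 2.0.12 and HTSeq 0.6.1, with the build Sscrofa11.1. No source used here gives the annotation release, strand setting, filters or treatment of reads that align to several places. FPKM values were deposited by the authors with 1 column per library, not pooled.

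FPKM equals reads divided by length and library total, so low genes take steps. The steps gave the ratio of the totals, and the totals were taken as the whole numbers under which gene lengths also come out whole, which held for 71.6% of the 1952 genes used to find them. For each gene, lengths from 50 to 30000 bp were tried upwards until the reads of both libraries came out whole (tolerance 1.2 times the rounding error of the printed digits), which succeeded for 100.0% of 16327 genes above 0. Recovered reads are the smallest that fit, so true reads can be a multiple and counting intervals are at their widest. Intervals (exact Poisson, 95%) and the exact binomial test (the smaller tail doubled, Benjamini-Hochberg, threshold 0.05) cover counting error only, since amplified reads without molecular identifiers can share a molecule. The recovery and the test were also run on simulated Poisson reads with known totals and lengths, with an outcome not reported here. Since those reads follow the same model, that run cannot show whether the totals and lengths are right for these data.

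A gene name table gave symbols to 14857 of the 25880 identifiers. Coordinates are from RefSeq on Sscrofa11.1, joined by symbol and not checked by position. Detection required at least 1 FPKM in each library. Medians used log2(FPKM + 1), a scale that shrinks differences among low genes. The members, lists, pairs and rules were chosen with earlier results of these data known. All 34 measured members are given, with the 2 highest genes of each related list (1 is not reported here), those at 0 and partners fixed by name. MAFF, MAFG, RBX1, CCS and the ER and mitochondrial groupings were added for their known roles. TFR2, SLC39A8, SLC39A14, STEAP3 and DCN were chosen after their values were seen. Scripts ran in Python 3.11.15 with numpy 2.4.6, scipy 1.17.1 and pandas 2.3.3. Alternatives changed the library used, pseudocount, detection level, low-value filter, scaling, list summary, library totals and minimum reads.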

Additional observations from a re-analysis of the deposited data

How the results depend on the processing

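Of the redox and iron genes, 33 were detected at 0.1 FPKM, 28 at 5 FPKM and 30 after rescaling to TPM, against 30 at 1 FPKM. Of the related genes, 94 were detected at 0.1 FPKM, 71 at 5 FPKM and 90 after rescaling, against 84. The shares over all genes with a symbol at 0.1 FPKM, at 5 FPKM and after rescaling are not given here. These counts are therefore not set against a background. The count of members that differed between the libraries was 0 under each alternative run for it. With 2 libraries, leaving 1 out gives the value of the other, which lies within the SD by construction and says nothing about stability; the alternatives of this kind for the ratios were chosen after seeing the data. Medians on the log2 scale moved with the scale itself. Rescaled to a sum of 1000000 per library (TPM), the median of all genes with a symbol rose by 1.24, and the median of the redox and iron genes was 5.82. On that scale the role medians were 6.23 for the NRF2 regulators, 4.92 for heme oxygenases and NQO1, 5.82 for glutathione synthesis, 2.85 for glutathione peroxidases, 7.44 for peroxiredoxins and sulfiredoxin, 7.05 for thioredoxins and reductases, 5.30 for superoxide dismutases and catalase, 4.21 for glutathione transferases, 1.08 for ferritin and 5.57 for iron uptake, export and control. With a pseudocount of 0.1 the median of the redox and iron genes was 4.36, and the role medians in the same order were 4.77, 3.44, 4.36, 0.94, 5.99, 5.60, 3.83, 2.61, -0.98 and 4.11. By the mean over members in place of the median, all members were at 4.22, heme oxygenases and NQO1 at 4.05, glutathione synthesis at 4.52, glutathione peroxidases at 2.27, peroxiredoxins and sulfiredoxin at 6.28, thioredoxins and reductases at 4.78, superoxide dismutases and catalase at 3.09 and iron genes at 4.30. With a mean of at least 0.1 FPKM required, which drops GPX4, the glutathione peroxidase median was 3.71, against 1.99 with all 4 measured genes. FTL, GPX3, SOD3 and MGST1 have few recovered reads, which are minimums, and whether depth limits TXNRD2 is not known, since its recovered length is short. No paired analysis was possible because the data hold 1 group.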
